A study of Caenorhabditis elegans with 2 samples.

Results

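CDC-48 is an AAA ATPase, known as p97 or VCP in mammals, that uses ATP to pull ubiquitin-marked proteins out of complexes, membranes and chromatin so that the proteasome can degrade them. UFD-1 and NPL-4 form the adaptor that brings ubiquitin-marked substrates to it, for example in the degradation of misfolded proteins of the endoplasmic reticulum (ER-associated degradation, ERAD). In C. elegans the ATPase is encoded by the paralogues cdc-48.1 and cdc-48.2, and the adaptor by ufd-1 and the duplicated genes npl-4.1 and npl-4.2. These 5 genes, of 19973 protein-coding genes annotated on the nuclear chromosomes, are described here. They were chosen by name, with the knowledge that cdc-48.1 carries the strongest peak of the study. The peak values below are therefore a description, with no test.

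The study immunoprecipitated chromatin of ALY-2, a member of the REF/ALY family of mRNA export adaptors, and sequenced the DNA (ChIP-seq). The material was whole L1 larvae, the first larval stage, of mixed sex and unknown age, from strain OP217. Its genotype is unc-119(ed3) III; ddIs172, an insertion aimed at aly-2 that gives an eGFP-tagged protein. The labels name the antibody target as aly-2 in one field and eGFP-aly-2 in another, and they do not give the promoter that drives the tagged protein. There was 1 group of 2 biological replicates, with no treatment and no second genotype. A control library is mentioned in the labels and was not analysed here. Nothing in the labels says that the replicates came from separate cultures, so their spread may be technical. Whole animals were used, so binding in few cells and weak binding in many cannot be told apart.

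Each peak carries a signal from the authors' peak caller, in a unit that was not stated, and signals are compared here only within 1 list. The final list held 1446 peaks, which were the 1446 strongest of the 15675 peaks called on the pooled replicates. The lists of replicates 1 and 2 held 26798 and 25463 peaks. The pooled list and both replicate lists keep background peaks. The read depth is unknown.

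The promoter peak of cdc-48.1 spanned chrII:10563457-10563670 (ce11) and is shown because no other peak of the study was as strong. The sequence is on the minus strand, that of the gene, from RefSeq assembly WBcel235. Capitals mark a cyclic AMP response element half-site (ACGTCA) and an SKN-1 type word (GTCATCAT, which stands here as its reverse complement).
cdc-48.1 promoter peak: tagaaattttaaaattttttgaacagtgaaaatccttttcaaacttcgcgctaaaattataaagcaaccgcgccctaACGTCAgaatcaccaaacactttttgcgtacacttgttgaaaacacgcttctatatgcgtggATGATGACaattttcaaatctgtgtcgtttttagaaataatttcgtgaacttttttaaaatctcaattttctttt

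The strongest summit upstream of the paralogue is shown for comparison, with the bases on either side of it (chrII:8137523-8137643, plus strand, ce11). It holds no capitals because neither of these words occurred in it.
cdc-48.2 upstream summit: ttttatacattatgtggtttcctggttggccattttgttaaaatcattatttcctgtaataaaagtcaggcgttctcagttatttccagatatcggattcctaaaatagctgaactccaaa

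Among the 5 genes, final summits were found at cdc-48.1 alone, which had 3: 1 in the promoter, 1 in an intron and 1 at the 3′ end. The promoter window ran from 1000 bp before the annotated 5′ end to 200 bp after it, and the 3′ end window from 200 bp before the annotated 3′ end to 500 bp after it. The share of all coding genes with a final summit was 5.58% for the promoter window, 2.32% for the gene body and 3.15% for the 3′ end window. The count of 1 of 5 genes in each window follows from how the genes were chosen, and nothing is read from it.

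In the pooled list, with its background peaks, 3 of the 5 genes had a promoter summit (24.9% of all coding genes), 2 a summit in the body (25.1%) and 3 a summit at the 3′ end (19.0%). In replicate 1 these counts were 3 (34.9%), 2 (38.2%) and 3 (26.1%). In replicate 2 they were 2 (33.7%), 2 (38.1%) and 2 (25.9%). Among the 1446 strongest peaks of replicate 1, cdc-48.1 was again the only one of the 5 in the promoter (5.28%), body (2.31%) and 3′ end (2.91%). Among the 1446 strongest of replicate 2, cdc-48.1 and cdc-48.2 had a promoter summit (5.08%), and cdc-48.1 one in the body (2.52%) and at the 3′ end (3.30%).

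**Figure D1:**
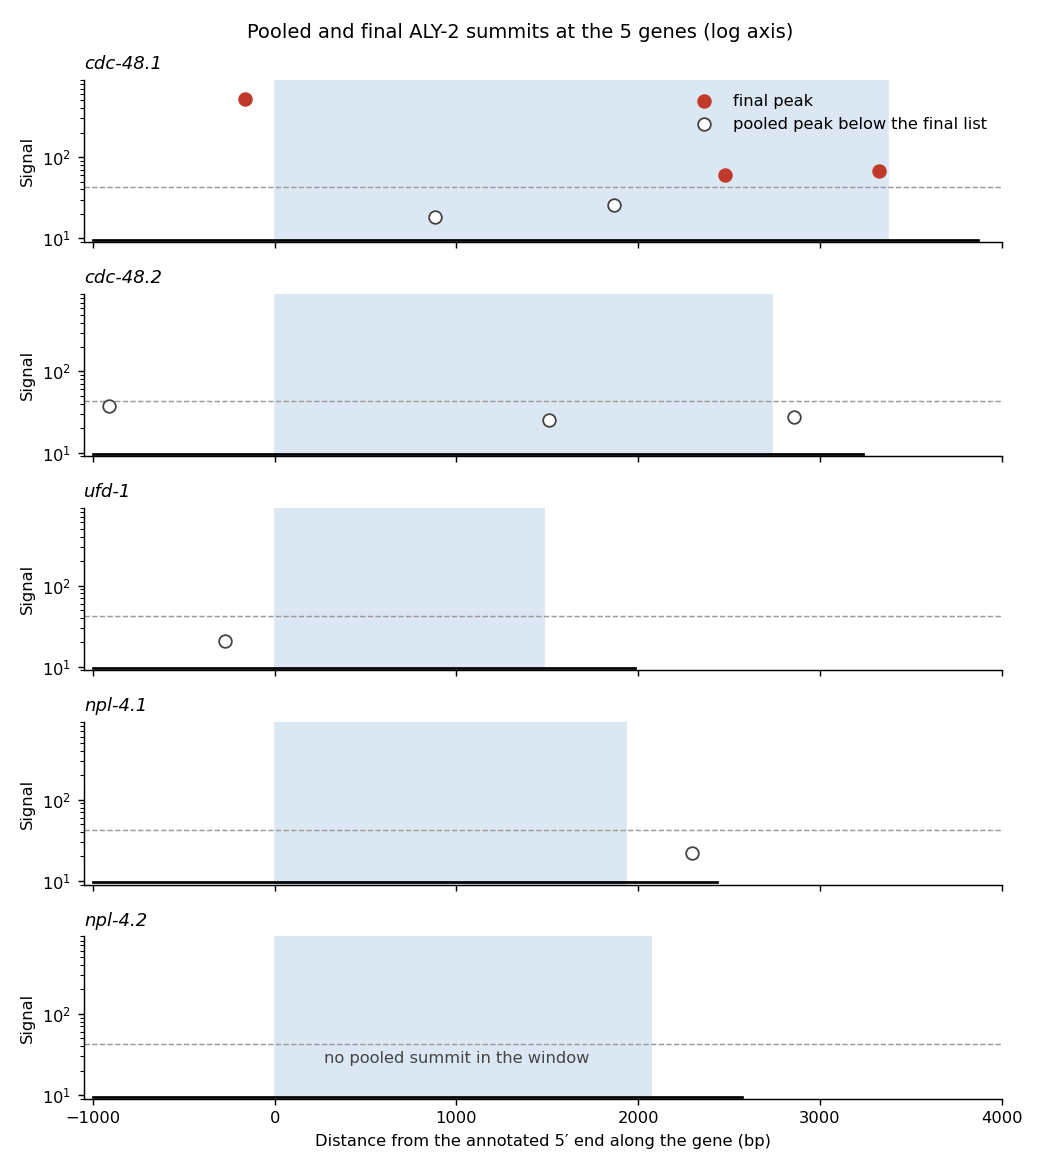
Summits of the pooled list at the 5 genes, by distance from the annotated 5′ end along the gene (x axis, bp) and signal (y axis, log scale); the shaded box is the gene, the black bar the stretch searched, the dashed line the lowest signal of the final list (42.7), and filled points are final peaks. The 3 final peaks of cdc-48.1 stand above the line, the summits of cdc-48.2, ufd-1 and npl-4.1 lie below it, and npl-4.2 has none.

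The gene cdc-48.1 (WBGene00007352) occupies chrII:10560036-10563407 on the minus strand, with 5 exons. Its promoter summit, at position 10563571, lay 164 bp upstream of the annotated 5′ end and 181 bp upstream of the start codon. The signal was 249 in replicate 1, 266 in replicate 2 and 515 in the pooled and final lists, and the peak ranked 1 in each of these lists. Relative to the median of the 1446 strongest peaks of the same replicate it stood at 8.30 in replicate 1 and 8.22 in replicate 2, or 8.26 ± 0.0589 (SD, n = 2). The replicates differed by 0.01 on the log2 scale, where the median absolute difference over final peaks was 0.38.

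The lead over the next peak was less alike between replicates. The promoter peak had 1.58 times the signal of the next peak in replicate 1, 1.18 times in replicate 2 and 1.57 times in the final list. The next peak was a different one in each list. It was the peak of final rank 5 in replicate 1 (157) and that of final rank 3 in replicate 2 (225). In the final list the peak of rank 2, with a signal of 328, lay at the 3′ ends of nra-1 and of hsp-1, which encodes a constitutive Hsp70 chaperone. Rank 3, with 324, was at the 3′ ends of F44E5.4 and F44E5.16. Rank 4, with 321, fell at the 3′ end of the glyoxylate cycle gene icl-1 and upstream of fbxb-72. Rank 5, with 309, fell at the 3′ end of hsp-90, which encodes the cytosolic Hsp90 chaperone, and upstream of C47E8.11, gasr-8 and a tRNA gene, WBGene00014287.

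The promoter summit was at the same base in both replicates. Of the 1442 final peaks with a peak in each replicate, 24 (1.66%) had replicate summits 0 bp apart, and the median distance was 30 bp. The peak was 214 bp wide in the final list, 203 bp in replicate 1 and 188 bp in replicate 2, while the commonest width in the final list was 360 bp. Of the 25 best-ranked final peaks, 16 were narrower than that, against 9 of the other 1421.

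**Figure D2:**
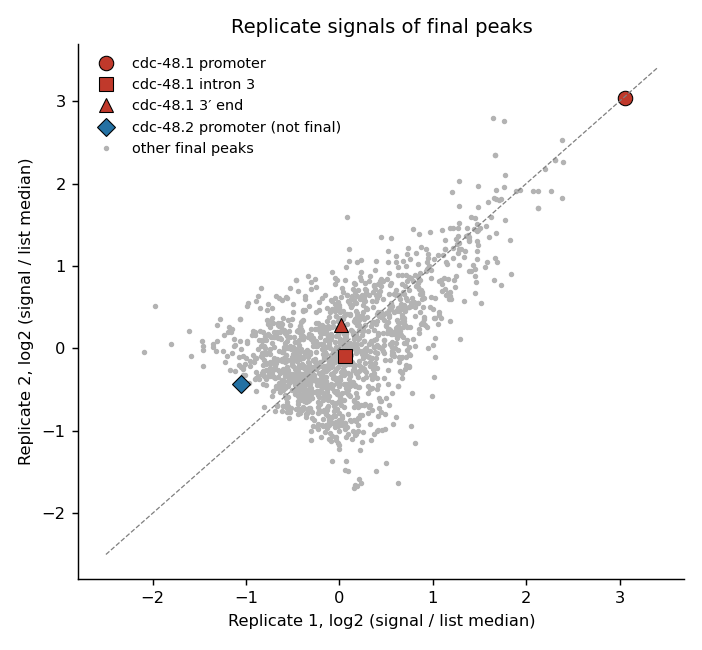
Signal of each final peak in replicate 1 (x axis) and replicate 2 (y axis), as log2 of the signal over the median of the 1446 strongest peaks of that replicate; grey points are other final peaks and the dashed line marks equal values. The cdc-48.1 promoter peak lies on the line at the upper right, at 3.05 and 3.04, and its intron 3 and 3′ end peaks lie within the cloud near 0. The strongest peak in the cdc-48.2 promoter window, nearer to ctns-1 and not in the final list, lies at the left edge of the cloud.

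The snoRNA gene C06A1.9 also had this summit in its promoter window. It lies in intron 1 of cdc-48.1 on the same strand (chrII:10562952-10563064), and the summit was 507 bp upstream of its 5′ end, with exon 1 of the host gene in between. The peak ended before the 5′ end of cdc-48.1 and did not reach the snoRNA. On the other side the summit was 541 bp from the 3′ end of C06A1.6, a gene on the same strand 704 bp from cdc-48.1. From the position alone, the summit was nearer to the 5′ end of cdc-48.1 than to either of these genes.

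A second snoRNA gene, C06A1.8, lay under a final summit. It takes up most of intron 3 (chrII:10560717-10560934, minus strand), and the final summit at 10560931 was 3 bp inside its 5′ end. The signal was 31.3 in replicate 1 (rank 649), 30.3 in replicate 2 (rank 824) and 60.6 in the final list (rank 681). The summit of replicate 1 was inside the snoRNA too, whereas that of replicate 2, 35 bp away, was in intron 3 just upstream of it. Relative to the list median the peak stood at 0.992 ± 0.0750 (SD, n = 2), the height of a median peak.

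The bases around this summit are shown on the minus strand (chrII:10560871-10560991, ce11), with the annotated snoRNA in capitals, because they hold the end of exon 3, the start of intron 3 and the start of the snoRNA.
cdc-48.1 intron 3 summit: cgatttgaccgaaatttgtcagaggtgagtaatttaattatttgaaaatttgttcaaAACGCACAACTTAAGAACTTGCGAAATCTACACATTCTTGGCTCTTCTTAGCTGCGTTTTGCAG

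The intronic snoRNAs share a short stretch in which 21 of 23 aligned bases (91.3%) were identical. It is shown on the minus strand with identical bases in capitals, at chrII:10560812-10560834 in C06A1.8 and chrII:10563042-10563064, the 5′ end of the gene, in C06A1.9.
C06A1.8: GAGTGTCATAtTTGTGCtATATA
C06A1.9: GAGTGTCATAgTTGTGCgATATA

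No summit of the final, pooled or replicate lists lay inside C06A1.9. At C06A1.8 the final, pooled and replicate 1 summits lay inside the annotated gene near its 5′ end, and the replicate 2 summit lay outside it.

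The 3′ end summit of cdc-48.1, at 10560080, lay in the 3′ UTR in exon 5, 44 bp before the annotated 3′ end. Its signal was 30.3 in replicate 1 (rank 699), 39.5 in replicate 2 (rank 432) and 66.7 in the final list (rank 528). Relative to the list median it stood at 1.12 ± 0.149 (SD, n = 2). The replicate summits were 52 bp apart, that of replicate 1 being 96 bp before the 3′ end.

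Within the gene the promoter peak was the strongest in both replicates. This follows from the choice of cdc-48.1, whose promoter peak was known to be the strongest of the study. The promoter peak had 8.21 times the signal of the 3′ end peak in replicate 1 and 6.73 times in replicate 2, or 7.47 ± 1.05 (SD, n = 2). It had 7.94 and 8.75 times the signal of the intron 3 peak, or 8.35 ± 0.571 (SD, n = 2). Coding exons held pooled summits at low signal, in exon 3 (26.0, rank 4445, also in the promoter window of C06A1.8) and in exon 2 (18.6, rank 10775).

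Final summits in the promoter, body and 3′ end windows at once, as at cdc-48.1, were found at 43 coding genes (0.215%); a summit just before a 3′ end counts for both the body and the 3′ end. At least 3 final summits between 1000 bp upstream and 500 bp downstream were found at 46 coding genes (0.230%). The median length of these 46 genes was 6672 bp, and 34 of them were longer than cdc-48.1, which spans 3372 bp.

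The 1114 other coding genes with a final promoter summit were compared with cdc-48.1 by height in both replicates. Those most like it were gasr-8 and C47E8.11, which share 1 summit (final rank 5), and egg-5 (final rank 6). The shared summit is also at the 3′ end of hsp-90. Likeness was the Euclidean distance between log2 signals over the list median in the 2 replicates. The distance was 1.02 for gasr-8 and C47E8.11 and 1.06 for egg-5. On that scale gasr-8 stood at 2.39 in replicate 1 and 2.26 in replicate 2, against 3.05 and 3.04 for cdc-48.1.

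The paralogue cdc-48.2 (WBGene00008053, chrII:8138496-8141230, plus strand) had no final summit in any window. The strongest summit in its promoter window lay 913 bp upstream of its 5′ end and 665 bp upstream of that of ctns-1, the divergent neighbour that encodes the cystinosin homologue. The genes are 1577 bp apart, and the summit was in the promoter windows of both. From the position alone it was nearer to ctns-1, so it cannot be assigned to cdc-48.2. Its signal was 14.4 in replicate 1 (rank 3961), 24.0 in replicate 2 (rank 1423) and 37.5 in the pooled list (rank 1925). It was thus among the 1446 strongest peaks of replicate 2 and not of replicate 1. The final list ended at a signal of 42.71, and the next pooled peak, of rank 1447, had 42.70. Nearer to the gene, replicate 1 alone had a weak summit 260 bp upstream (11.5, rank 7027).

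The promoter peak of cdc-48.1 had 17.2 times the signal of that cdc-48.2 summit in replicate 1 and 11.1 times in replicate 2, or 14.2 ± 4.35 (SD, n = 2). This ratio has the strongest peak of the study as its numerator, known when the genes were chosen. Its size beside the ratios that follow is therefore not read. The intron 3 peak of cdc-48.1 had 2.41 ± 0.566 times the signal of the strongest peak in the body of cdc-48.2. It was not the strongest cdc-48.1 body peak in the pooled list or replicate 2, where the 3′ UTR peak was stronger. The cdc-48.2 body peak had a signal of 11.1 in replicate 1, in coding exon 3, and 15.1 in replicate 2, in intron 3. In the pooled list it had 25.4 (rank 4738). At the 3′ ends the cdc-48.1 peak had 2.60 ± 0.0501 times the signal of the cdc-48.2 peak (SD, n = 2 for each ratio). The cdc-48.2 summit there, with 11.8 in replicate 1, 15.0 in replicate 2 and 27.7 in the pooled list, lay 125 bp past the gene and inside ints-11, a convergent gene that overlaps cdc-48.2 by its last bases. In the pooled list the cdc-48.2 peaks had −log10 q-values of 1.56 (promoter window), 0.392 (body) and 0.552 (3′ end). The lowest value in the final list was 2.50. These ratios are thus taken against peaks below the final list, and are not measured differences in binding. The final summit nearest to cdc-48.2 was 7629 bp away, at the snoRNA gene C41C4.16 within ulp-4, and had a signal of 43.8 (rank 1373).

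**Figure D3:**
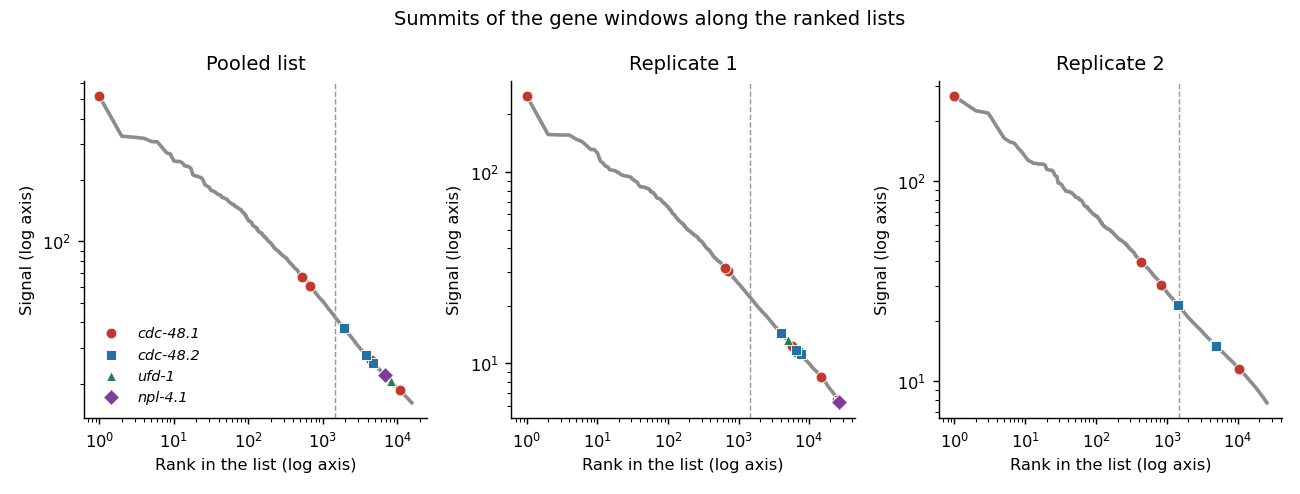
Signal against rank, both on log axes, in the pooled list and the lists of replicates 1 and 2 (grey lines), with the summits at cdc-48.1, cdc-48.2, ufd-1 and npl-4.1 as coloured points; the dashed line marks the size of the final list, 1446. The cdc-48.1 promoter peak is rank 1 in each panel, and the cdc-48.2 promoter summit reaches the dashed line in replicate 2 (rank 1423) and lies right of it in the others.

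The paralogues could be told apart by short words. Their coding sequences were 75.4% identical (1845 of 2448 aligned columns) and the 200 bp upstream 45.3% (105 of 232), and they shared no 36-base word in any window. Every 36-base word of the 3 cdc-48.1 final peaks occurred once in the genome, as was the case at 1295 of all 1446 final peaks (89.6%). The promoter window of cdc-48.1 held 90.7% such unique words, none of the repeated ones lying within the peak, and that of cdc-48.2 held 100%.

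The adaptor gene ufd-1 (WBGene00006733, chrIV:12329408-12330890, minus strand) had no final summit, and no summit of any list in its body or at its 3′ end. Its promoter window held a weak pooled summit 276 bp upstream, with a signal of 20.5 (rank 8286). Replicate 1 had 13.2 there (rank 4946) at 296 bp upstream, and replicate 2 had no summit in the window. The promoter peak of cdc-48.1 had 18.8 times this signal in replicate 1 and 25.1 times in the pooled list. The pooled ufd-1 summit had a −log10 q-value of 0.127, and the weakest peak of the pooled list had a signal of 16.1. These ratios are therefore taken against a summit near the floor of the list, and are not measured differences in binding. The pooled summit lay in the 3′ UTR of F19B6.1, which ends 85 bp upstream of ufd-1 on the same strand. The nearest final summit was 41190 bp away, in the promoter window of wdr-46.

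At npl-4.1 (WBGene00019120, chrII:5631351-5633284) and npl-4.2 (WBGene00019121, chrII:5622889-5624959), both on the plus strand, no list had a summit in the promoter window or the body. Their coding sequences were 99.5% identical (1579 of 1587 bases), and the 200 bp upstream of each were the same in all 200 bases. Each promoter window held 3.09% unique 36-base words, and 1130 of the 1166 words (96.9%) of the npl-4.1 window were also in that of npl-4.2. In the bodies 14.4% of words were unique at npl-4.1 and 16.6% at npl-4.2.

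Of all coding genes, 253 had under 10% unique words in the promoter window, and 0 of these had a summit there in the pooled list or in either replicate list. With 10 to 90% unique words the share with a pooled summit was 10.7%, and with 90% or more it was 27.2%. Whether reads that match several places were kept is not stated in the labels or files. The lack of summits at the npl-4 promoters is not read here as a low level of ALY-2, and the part of sequence repetition in it was not tested.

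**Figure D4:**
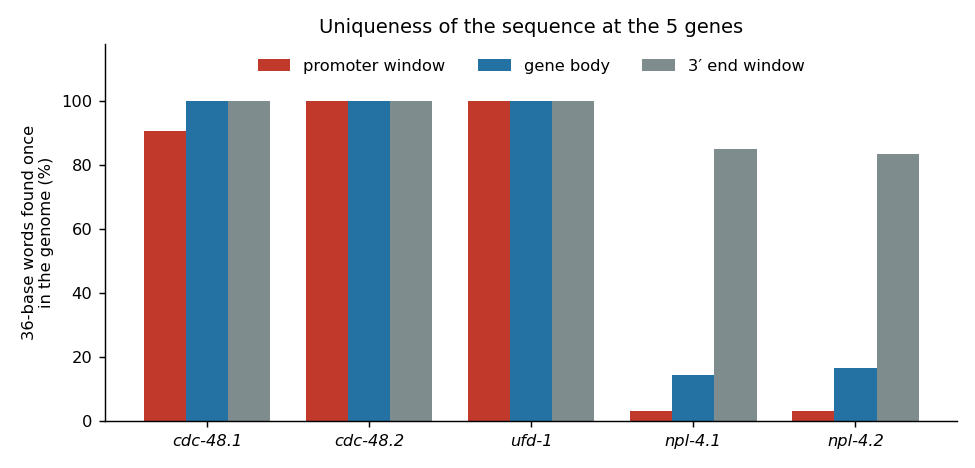
Share of 36-base words that occur once in the genome (y axis, percent) in the promoter window, gene body and 3′ end window of each gene (x axis). The promoter windows of npl-4.1 and npl-4.2 stand at 3.09% each, those of cdc-48.1, cdc-48.2 and ufd-1 at 90.7%, 100% and 100%.

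The 3′ end windows were less repeated, with 85.1% unique words at npl-4.1 and 83.6% at npl-4.2. Of the 666 words of the npl-4.1 window, 85 were also in that of npl-4.2. There npl-4.1 had a pooled summit 363 bp past its 3′ end, with a signal of 22.1 (rank 6838). In replicate 1 a summit 193 bp past the end had 6.28 (rank 26295 of 26798), and replicate 2 had none in the window. The 3′ end window of npl-4.2 held no summit of any list. The nearest final summit was 24293 bp from npl-4.1 and 23149 bp from npl-4.2.

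The cdc-48.1 promoter peak had a GC content of 31.3%, against a median of 39.3% in 214 bp windows around all final summits. Of these windows 11.6% had a lower value. The GC content of coding promoters was not measured. The window around the cdc-48.2 summit had 33.6%, and that around the intron 3 summit of cdc-48.1 had 39.3%.

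The 5 words searched, on both strands, were chosen after the sequence was read. ACGTCA, the core of sites for bZIP factors of the CREB and ATF type, occurred once in the cdc-48.1 peak, from 186 to 181 bp upstream of the 5′ end. It was in 7.05% of final peaks and in 7.72% of coding promoters, each taken as a window of 214 bp. GTCATCAT, a word of the kind bound by the stress response factor SKN-1, occurred once, from 124 to 117 bp upstream, and was in 1.24% of final peaks and 1.33% of coding promoters. TATAAA occurred once, from 206 to 201 bp upstream, and was in 19.7% of final peaks and 27.03% of coding promoters. The paired heat shock element GAANNTTC, in 11.9% of final peaks and 13.6% of coding promoters, had no match, nor had GAGAGA, in 31.9% and 16.3%. The window around the cdc-48.2 summit held TATAAA and none of the other 4. The matches do not overlap each other, and each is a description of letters, not of binding.

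Some other cofactor, ERAD and related AAA ATPase genes had final promoter summits of ordinary height. The list of 24 genes comprised 14 further cofactors, 7 ERAD genes and 3 related AAA ATPases. Final promoter summits were found at 5 of the 24, beside 5.58% of all coding genes, with 3 among the cofactors, 1 among the ERAD genes and 1 among the ATPases. Pooled promoter summits were found at 15 of the 24, beside 24.9%. The list was chosen with earlier results of these data known, and some of these summits are shared with neighbouring genes. No enrichment is read from the counts. Over genes with one, the median pooled promoter signal was 30.4 in the list and 24.8 among all coding genes. No list gene had a final summit in its body, beside 2.32%.

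Among the cofactors, ubxn-2, which encodes a homologue of the mammalian p47 adaptor, had a signal of 33.9 in replicate 1 (rank 538), 36.5 in replicate 2 (rank 537) and 74.4 in the final list (rank 414), 197 bp upstream. The ubiquilin gene ubql-1 had 38.0, 34.5 and 73.5 in the same lists (final rank 429), at a summit shared with pdi-3, VF15C11L.1 and VF15C11L.2. The gene ufd-3, whose yeast counterpart binds Cdc48 and ubiquitin, had 16.1 in replicate 1 (rank 3081), 36.3 in replicate 2 (rank 547) and 52.9 in the final list (rank 899). The replicates thus ranked ubxn-2 alike and ufd-3 far apart.

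The ERAD gene ubc-7, for a ubiquitin-conjugating enzyme, had 22.7 in replicate 1, 21.8 in replicate 2 and 46.1 in the final list (rank 1223). The ATPase gene nsf-1, whose product takes SNARE complexes apart, had 26.5, 33.5 and 60.3 (final rank 686) at a summit shared with adr-1. All 5 stood below the 515 of cdc-48.1, as any other peak must, because cdc-48.1 was chosen with the strongest peak known. Below the final list, the E4 ligase gene ufd-2 had 24.1 in the pooled list (rank 5406) and the CDC-48 relative cdc-48.3 had 22.1 (rank 6812).

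At 3′ ends, 2 of the 24 genes had a final summit, beside 3.15% of coding genes. These were ubxn-3, with 109 (rank 152) at 276 bp past its end, in the promoter window of F48A11.4, and ubc-7, with 48.4 (rank 1110) at 30 bp past its end, in the promoter windows of tbg-1 and rpac-19.

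**Figure D5:**
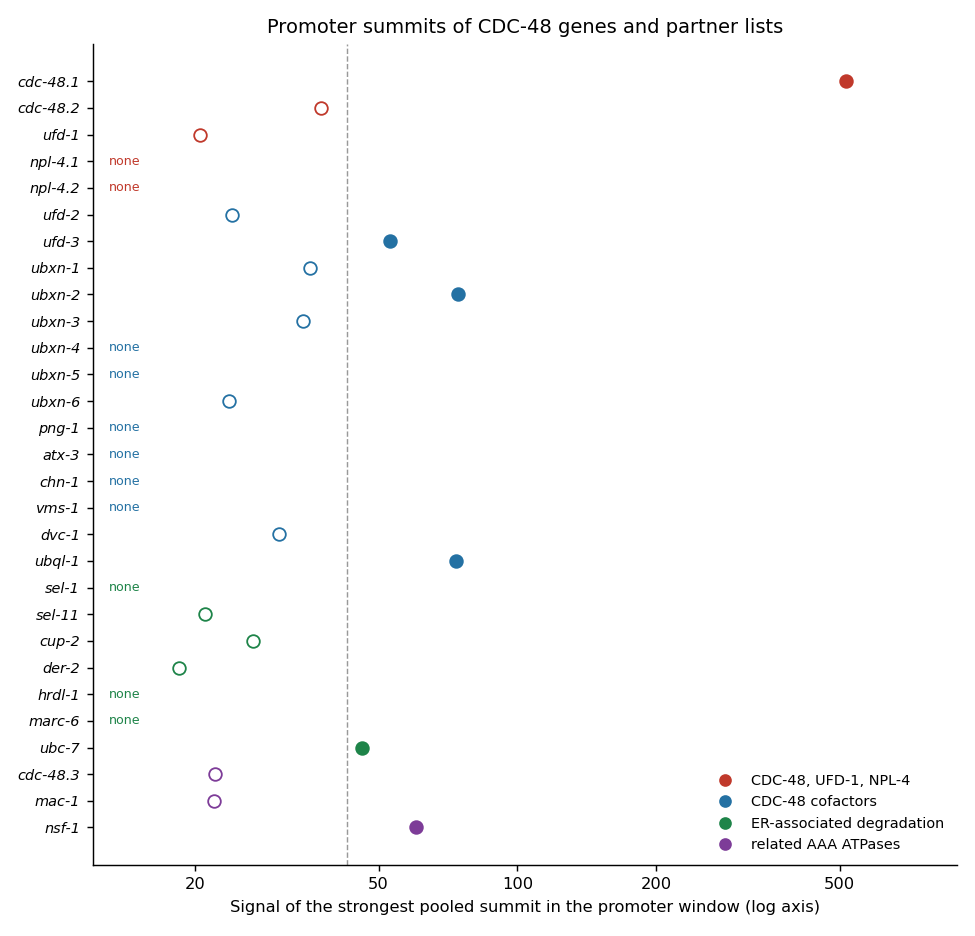
Signal of the strongest pooled summit in the promoter window (x axis, log scale) for the 5 genes and the 24 list genes (rows); filled points are final peaks, "none" marks genes with no pooled summit there, and the dashed line is the lowest signal of the final list (42.7). The point of cdc-48.1 is at 515, and the 5 list genes with a final peak lie between 46.1 and 74.4.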

How the data were processed

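ALY-2 chromatin was measured in 2 replicates of 1 group. Per the labels and description files, the authors deposited peak lists with background peaks for each replicate and for pooled replicates, made for analysis of irreproducible discovery rate (IDR), and a final list at its optimal threshold. Each deposited peak has a signal value and a −log10 q-value. The signal was used here, and the q-value is given only at cdc-48.2 and ufd-1. The aligner, peak caller, their versions and the IDR threshold were not stated, nor was the depth, so no interval was given on a signal.

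Summits (ce11, counted from 1) were placed in windows of Ensembl release 115 genes (WBcel235), and sequence was read from the RefSeq assembly of that name. Words of 36 bases were counted on both strands of the genome. Coding sequences were aligned with Biopython 1.88, and the window counts were tested on simulated summits.

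The 5 genes and the lists were chosen with earlier results of these data known, and no test was made. The genes named were the 5, genes sharing their summits, those at ranks 2 to 5, the 3 most alike genes and list genes with a final promoter summit. List genes with a 3′ end summit, genes at the nearest final summits, ufd-2 and cdc-48.3 were named after their values were seen. Alternatives were a window of 500 bp, any overlap, the upper 50% of final peaks, the nearest 5′ end, 1 replicate alone, 50-base words and, added after seeing the data, the ce10 final list.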

Additional observations from a re-analysis of the deposited data

How the results depend on the processing

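The count of 1 of 5 genes with a final promoter summit was 1 with 500 bp upstream, any overlap, the upper 50% of final peaks and the nearest 5′ end. It was 1 to 2 with 1 replicate left out, as cdc-48.2 entered without replicate 1, through the summit that is nearer to ctns-1. The 3′ end count of 1 became 0 with the 500 bp downstream alone, because the cdc-48.1 summit lies before the annotated end. The body count stayed at 1 without either replicate. The list count of 5 was 4 with 500 bp upstream, where ubql-1 was lost, and 4 to 5 with 1 replicate left out. Without replicate 1 ubxn-1 entered and ubc-7 was lost, and without replicate 2 ufd-3 was lost, so ubxn-2, nsf-1 and ubql-1 were in the count with either replicate left out. The cdc-48.1 peak had 1.57 times the signal of the next peak, and 1.18 (without replicate 1) to 1.58 times with 1 replicate left out. The next peak was a different one in the final list and in each replicate. In the ce10 final list, an alternative chosen after seeing the data, the ratio was 1.57. The cdc-48.1 peak had 8.76 times the median signal of the final list, 8.22 to 8.30 times with 1 replicate left out and 8.56 times in the ce10 list. With 50-base words, unique shares were 17.4% in the body of npl-4.1 and 20.5% in that of npl-4.2. No paired analysis was possible because the 2 replicates form 1 group. The depth is unknown, so the limit it sets cannot be given.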
